A study of Homo sapiens with 12 samples.

Results

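Mitotic kinesins are motor proteins that use ATP to move along microtubules or to take them apart, and they build the spindle, carry and align chromosomes on it and then divide the cell. The 10 genes described here (KIF11, KIF14, KIF15, KIF18A, KIF20A, KIF23, KIF2C, KIF4A, KIFC1 and CENPE) were chosen by name, with earlier results of these data known, and all 10 were among the 14828 genes of the deposited expression table. Their mRNA was measured by RNA-seq in 22Rv1, an established prostate carcinoma cell line, after depletion of CENPA, the histone H3 variant that marks centromeric chromatin. All 3 groups were transduced with a lentiviral pTRIPZ vector whose shRNA is switched on by doxycycline, selected as cell populations, and given doxycycline at 2 µg/ml for 72 h. The groups are named by the shRNA, which was nontargeting (shNT) or directed at CENPA (shCENPA1 or shCENPA2). Each shRNA was carried by separately transduced cells, so its effect cannot be told apart from other differences between the cell populations. Each group had 2 libraries, each sequenced in 2 lanes that were averaged here, so every value below is 1 of 6 libraries. No cells without doxycycline were analysed here, and the sources do not say whether the 2 libraries of a group came from separate cultures, so the p-values measure only the spread between these libraries. Levels are log2 RPKM, reads scaled to gene length and library size on the log2 scale, which can be compared between genes because length is taken out.

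Most mitotic kinesins are made for division and removed after it, and in cycling cells their mRNA is highest in late S phase, G2 and mitosis. Their work is divided in time: some separate the spindle poles, some join chromosomes to microtubules and bring them to the spindle equator, and some organise the microtubules left between the separating chromosomes so that the cell can be cleaved. In a library made from a whole culture, fewer cells in division and less mRNA in each dividing cell cannot be told apart.

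Their promoters are shown first, because a promoter word recurred in 7 of the 10. The part of this word in the changes described below was not tested. The cell cycle genes homology region (CHR, searched as TTTGAA or TTCGAA on both strands) is a short element of late cell cycle genes, at which the MuvB complex is known to act, often next to a CCAAT box that is known to be bound by NF-Y. The sequences are from RefSeq, build GRCh38.p14, 5′ to 3′ in the direction of the gene, and all 10 genes were matched. Positions count from the RefSeq start of the gene, which is position 1, with the base before it at -1, and each window searched ran from 250 bases before the start to 50 bases after it. The CHR word was found in 7 of the 10 promoters, against 16.4% of 35116 promoters of this length and 11.7% of the 15130 promoters of genes in the expression table. These 7 are printed in windows of 30 bases with the CHR in capitals, which reads TTCAAA where the word lies on the opposite strand.
KIF11 (chr10:92593090-92593119, plus strand): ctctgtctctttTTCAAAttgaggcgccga
KIF15 (chr3:44761747-44761776, plus strand): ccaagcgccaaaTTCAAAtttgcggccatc
KIFC1 (chr6:33391815-33391844, plus strand): tggccgttggaaTTCAAAagtggcgggtgt
KIF18A (chr11:28108149-28108178, minus strand): aagtggcttgggTTTGAAtattgtggttga
KIF4A (chrX:70290058-70290087, plus strand): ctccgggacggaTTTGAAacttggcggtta
KIF23 (chr15:69414282-69414311, plus strand): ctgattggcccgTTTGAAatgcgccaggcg
KIF14 (chr1:200620733-200620762, minus strand): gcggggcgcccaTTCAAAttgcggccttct
The word began at position -28 in KIF11, -35 in KIF15, -10 in KIF18A, -34 in KIF4A and -55 in KIF23, and just past the start, at 2 and 5, in KIF14 and KIFC1. In KIF15 the bases directly before it form an E2F word on the opposite strand. E2F words (TTTGGCGC, TTTCGCGC or TTTCCCGC) were found in 1 of the 10 promoters, that of KIF15, and in 3.96% of promoters of genes in the table. The CCAAT box (CCAAT, either strand) was found in 7 of 10 promoters, against 34.6% of those of genes in the table, and the CHR together with CCAAT in 6 of 10 against 4.77%.

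The promoters of KIF2C, CENPE and KIF20A held no CHR by this spelling. Each held TTTAAA, a word looked for only after these sequences had been seen. It is in capitals in the windows of 30 bases that follow.
KIF2C (chr1:44739822-44739851, plus strand): ttgcgcgcgggaTTTAAActgcggcggttt
CENPE (chr4:103198388-103198417, minus strand): ggaaattttaaaTTTAAAggcggggcggcc
KIF20A (chr5:138179059-138179088, plus strand): cgcagcgcgtaaTTTAAAatattgtatctg
In CENPE the word stands in 2 copies in direct succession, at -68 and -62, and the window shows the copy nearer to the start in capitals. TTTAAA was found in 5 of 10 promoters and in 8.56% of promoters of genes in the table, and the TATA word TATAAA in 0 of 10 against 6.1%. For the spacing of the elements, the 120 bases before the start are printed for 3 genes whose GENCODE gene begins after them, with CHR and CCAAT in capitals (ATTGG is CCAAT on the opposite strand).
KIF4A (chrX:70289984-70290103, plus strand): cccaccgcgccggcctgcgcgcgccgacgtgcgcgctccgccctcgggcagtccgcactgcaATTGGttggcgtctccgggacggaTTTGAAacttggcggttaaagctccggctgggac
KIF18A (chr11:28108157-28108276, minus strand): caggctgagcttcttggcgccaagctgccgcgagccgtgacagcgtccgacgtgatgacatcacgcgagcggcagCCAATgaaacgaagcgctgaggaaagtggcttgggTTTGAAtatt
KIFC1 (chr6:33391703-33391822, plus strand): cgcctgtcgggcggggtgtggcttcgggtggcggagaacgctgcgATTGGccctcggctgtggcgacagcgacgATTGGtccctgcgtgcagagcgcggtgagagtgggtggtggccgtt
KIF4A and KIF18A carry CCAAT upstream of the CHR, and KIFC1 carries CCAAT at -75 and -46. A match is a string of letters, and no binding was measured at these promoters here.

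**Figure D1:**
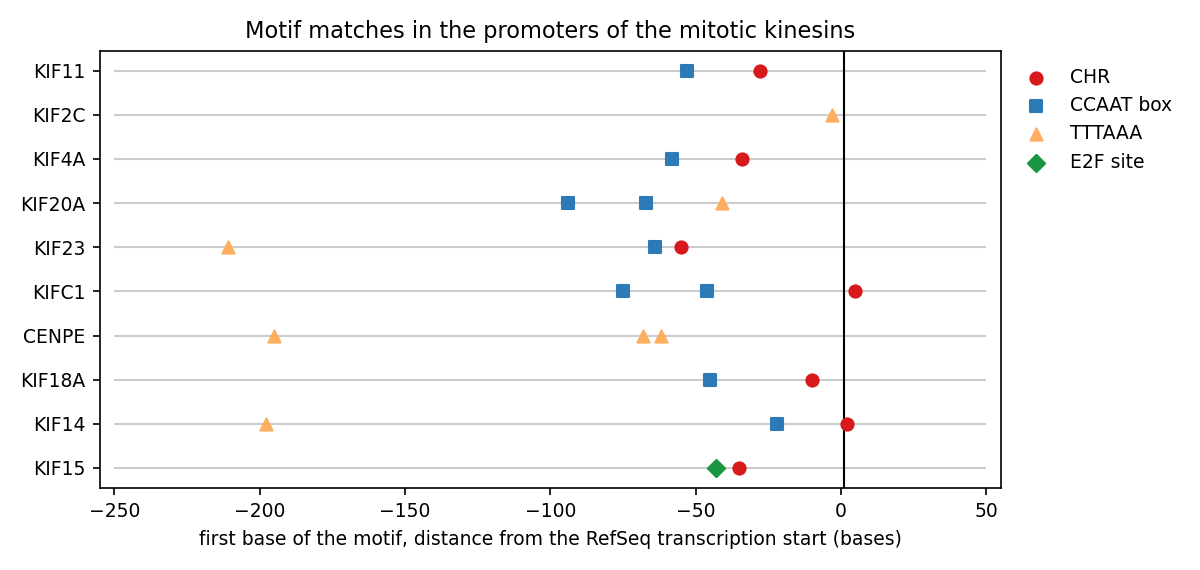
Each grey line is the promoter of a gene from 250 bases before its RefSeq start (black line) to 50 bases after it, ordered by the gene's level in shNT, and the symbols mark the first base of each match on either strand. CHR matches (circles) lie between -55 and 5 in 7 of 10 promoters, and KIF2C, KIF20A and CENPE hold TTTAAA (triangles) and no CHR.

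The knockdown was read from CENPA itself. CENPA was at 2.46 and 2.18 log2 RPKM in the shNT libraries, at 0.50 and 0.58 with shCENPA1 and at -0.47 and -0.41 with shCENPA2. The groups did not overlap, and both CENPA shRNAs left the targeted mRNA below the nontargeting control, shCENPA2 more so. CENPA changed by -1.78 on the log2 scale in shCENPA1 cells (adjusted p = 0.000287) and by -2.76 in shCENPA2 cells (adjusted p = 1.13e-05), and the shRNAs differed by -0.98 (adjusted p = 0.0209). The libraries held 79172294 to 133074655 reads on genes, and the mitotic kinesins rested on 484 reads (KIF15) to 11379 reads (KIF11) per library. Of the prostate luminal markers HOXB13 was at 7.84 and KRT18 at 6.81 log2 RPKM in shNT, while KLK3 was at -0.48. Of the 9 luminal markers KLK2 and KLK3 were called lower with shCENPA2 (4.45% of all genes), and 0 with shCENPA1 (1.83%). At an adjusted p under 0.05 alone in limma, 5 fell and 2 rose with shCENPA2, HOXB13 (0.47) among the latter. Of all genes 10.5% fell and 8.05% rose by that rule. The leukocyte markers PTPRC, CD3E, CD14 and LYZ were not in the table, and of 6 stromal markers 3 were, with COL1A2, COL3A1 and PDGFRB absent. Of 5 neuroendocrine markers CHGA and SYP were in the table, with a summed RPKM of 22.3 to 28. CHGA (-2.10 log2 RPKM in shNT, -0.04 with shCENPA1 and -0.35 with shCENPA2) and DCN (-3.05, -1.11 and -1.57) were called higher with both shRNAs, and their part in the results below was not tested.

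The mRNA of the mitotic kinesins fell with both CENPA shRNAs. With shCENPA1, 9 of the 10 mitotic kinesins were called lower, which required a log2 fold change below -1 and an adjusted p under 0.05 (limma, Benjamini-Hochberg over 14624 genes tested), against 1.83% of all genes tested. With shCENPA2, 10 of 10 were called lower, against 4.45%. The 9 genes called with shCENPA1 were also called with shCENPA2, against 1.70% of all genes called lower with both. At an adjusted p under 0.05 alone, 10 of 10 fell with shCENPA1 (4.45% of all genes) and 10 of 10 with shCENPA2 (10.5%). The median log2 fold change of the 10 was -1.24 with shCENPA1 and -1.54 with shCENPA2, beside medians over all genes tested of 0.00 and 0.01. Both comparisons share the shNT libraries. For each of the 10 genes both libraries of each CENPA shRNA lay below both shNT libraries, which was so for 27.1% of all genes with shCENPA1 and 31.0% with shCENPA2. An exact permutation test of 2 libraries against 2 cannot go below p = 0.33, so the tests rest on the spread that limma pools over genes.

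**Figure D2:**
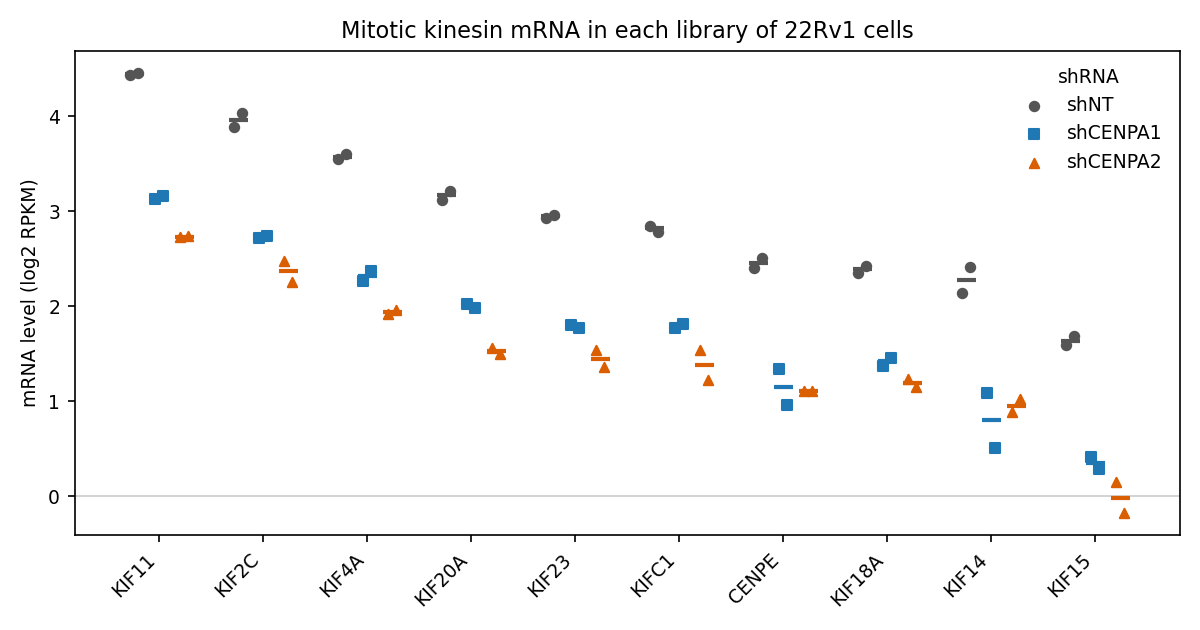
The mRNA level in log2 RPKM (vertical axis) of each mitotic kinesin, with 1 symbol per library (circles shNT, squares shCENPA1, triangles shCENPA2) and a short line at the mean of the 2 libraries of a group. In all 10 genes the shNT libraries sit above the 4 knockdown libraries, and only in KIF14 and CENPE do the 2 CENPA shRNAs overlap.

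The motors that set the poles of the spindle apart were KIF11, KIF15 and KIFC1. KIF11 (Eg5; chromosome 10, 92574105 to 92655395, plus strand, 22 exons) slides antiparallel microtubules and drives the poles apart, and its block arrests cells with a monopolar spindle. It was at 4.44 and 4.46 log2 RPKM in shNT, at 3.13 and 3.16 with shCENPA1 and at 2.73 and 2.74 with shCENPA2. The 2 libraries of a group lay nearly on top of each other, in 3 separate steps. Its log2 fold change was -1.30 (SE 0.09, adjusted p = 9.21e-05) with shCENPA1 and -1.72 (SE 0.09, adjusted p = 6.3e-06) with shCENPA2, that is 59.5% and 69.6% less mRNA. KIF15 (chromosome 3, 44761721 to 44873376, plus strand, 35 exons) can hold a bipolar spindle open when KIF11 is blocked. It was the lowest of the group, at 1.59 and 1.69 log2 RPKM in shNT, 0.41 and 0.29 with shCENPA1, and 0.15 and -0.18 with shCENPA2. All 4 knockdown libraries were below both shNT libraries, and the shCENPA2 libraries below those of shCENPA1. KIF15 changed by -1.29 (SE 0.17, adjusted p = 0.00196) and -1.66 (SE 0.17, adjusted p = 0.000213). KIFC1 (chromosome 6, 33391823 to 33409896, plus strand, 11 exons) walks towards minus ends, pulls against KIF11 and gathers extra centrosomes into a pair of poles. It was at 2.85 and 2.78 log2 RPKM in shNT, 1.77 and 1.81 with shCENPA1 and 1.54 and 1.22 with shCENPA2. The groups did not overlap, and the shCENPA2 libraries were farther apart than those of the other groups. KIFC1 changed by -1.03 (SE 0.14, adjusted p = 0.00196) and -1.43 (SE 0.14, adjusted p = 0.00013). Its shCENPA1 change lies close to the threshold of size, and under 4 of 19 alternatives it fell short of -1 (-0.99 without library 1 of shNT), with an adjusted p of at most 0.0348 over the alternatives.

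The motors that act on chromosomes and kinetochores were KIF2C, KIF18A and CENPE. KIF2C (MCAK; chromosome 1, 44739818 to 44767767, plus strand, 21 exons) takes microtubule ends apart at the centromere and helps to correct wrong attachments. It was at 3.89 and 4.04 log2 RPKM in shNT, 2.72 and 2.74 with shCENPA1 and 2.48 and 2.26 with shCENPA2. The 3 groups were separate, with the shNT libraries highest. KIF2C changed by -1.23 (SE 0.11, adjusted p = 0.000296) and -1.59 (SE 0.11, adjusted p = 2.69e-05). CENPE (chromosome 4, 103105349 to 103198445, minus strand, 49 exons) is carried by the kinetochore and brings chromosomes to the spindle equator along microtubules. It was at 2.40 and 2.51 log2 RPKM in shNT, 1.34 and 0.96 with shCENPA1 and 1.11 and 1.11 with shCENPA2. The CENPA shRNAs overlapped here, since the shCENPA1 libraries lay on either side of those of shCENPA2. CENPE changed by -1.31 (SE 0.15, adjusted p = 0.00103) and -1.35 (SE 0.15, adjusted p = 0.000375). KIF18A (chromosome 11, 28020619 to 28108156, minus strand, 17 exons) gathers at the plus ends of kinetochore microtubules and damps chromosome movements at the equator. It was at 2.35 and 2.42 log2 RPKM in shNT, 1.37 and 1.46 with shCENPA1 and 1.23 and 1.15 with shCENPA2. The groups did not overlap, but the falls from shNT were the smallest of the 10 members with each shRNA. KIF18A changed by -0.97 (SE 0.13, adjusted p = 0.00174) with shCENPA1, the only member not past the threshold of size, and by -1.20 (SE 0.13, adjusted p = 0.000226) with shCENPA2. Without library 2 of shCENPA1 the former was -1.01 (adjusted p = 0.0192) and KIF18A was called as well, as it was without library 1 of shNT.

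The motors of the central spindle and of cell cleavage were KIF4A, KIF20A, KIF23 and KIF14. KIF4A (chromosome X, 70290104 to 70420886, plus strand, 31 exons) binds chromosome arms and, with PRC1, sets the length of the overlapping microtubules between the separating chromosomes. It was at 3.55 and 3.60 log2 RPKM in shNT, 2.27 and 2.37 with shCENPA1 and 1.92 and 1.96 with shCENPA2. The libraries fell into 3 separate pairs, and the log2 fold changes were -1.25 (SE 0.10, adjusted p = 0.000218) and -1.63 (SE 0.10, adjusted p = 1.72e-05). KIF20A (MKLP2; chromosome 5, 138178719 to 138187723, plus strand, 19 exons) brings Aurora B and its complex from the chromosomes to the central spindle. It was at 3.12 and 3.21 log2 RPKM in shNT, 2.03 and 1.98 with shCENPA1 and 1.56 and 1.50 with shCENPA2. These were again 3 separate pairs, with changes of -1.16 (SE 0.11, adjusted p = 0.000367) and -1.63 (SE 0.11, adjusted p = 2.23e-05). KIF23 (MKLP1; chromosome 15, 69414246 to 69448427, plus strand, 24 exons) forms centralspindlin with RACGAP1 and bundles the microtubules of the midzone. It was at 2.93 and 2.96 log2 RPKM in shNT, 1.80 and 1.77 with shCENPA1 and 1.54 and 1.36 with shCENPA2. The groups did not overlap, and KIF23 changed by -1.16 (SE 0.12, adjusted p = 0.000535) and -1.50 (SE 0.12, adjusted p = 4.61e-05).

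KIF14 (chromosome 1, 200551497 to 200620751, minus strand, 30 exons) binds PRC1 and citron kinase and is needed for the last steps of cleavage. It was at 2.14 and 2.41 log2 RPKM in shNT, 1.09 and 0.51 with shCENPA1 and 0.89 and 1.02 with shCENPA2. The knockdown libraries were all below shNT, the shCENPA1 libraries lay on either side of those of shCENPA2, and no other member spread as widely within a group. The gap of 0.59 between its shCENPA1 libraries was larger than that of 95.4% of genes, where the median gap of all genes in that group was 0.16. KIF14 changed by -1.48 (SE 0.20, adjusted p = 0.00218) with shCENPA1 and -1.32 (SE 0.20, adjusted p = 0.00188) with shCENPA2. Without library 2 of shCENPA1 the former was -1.18 (adjusted p = 0.0253), smaller than the change with shCENPA2, so the order of the 2 shRNAs for KIF14 rested on that library. CENPE showed the next widest gap in that group, 0.38, larger than that of 87.1% of genes, and it was lower in the same library as KIF14. Between the shCENPA1 libraries the other 8 members differed by 0.02 to 0.12.

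**Figure D3:**
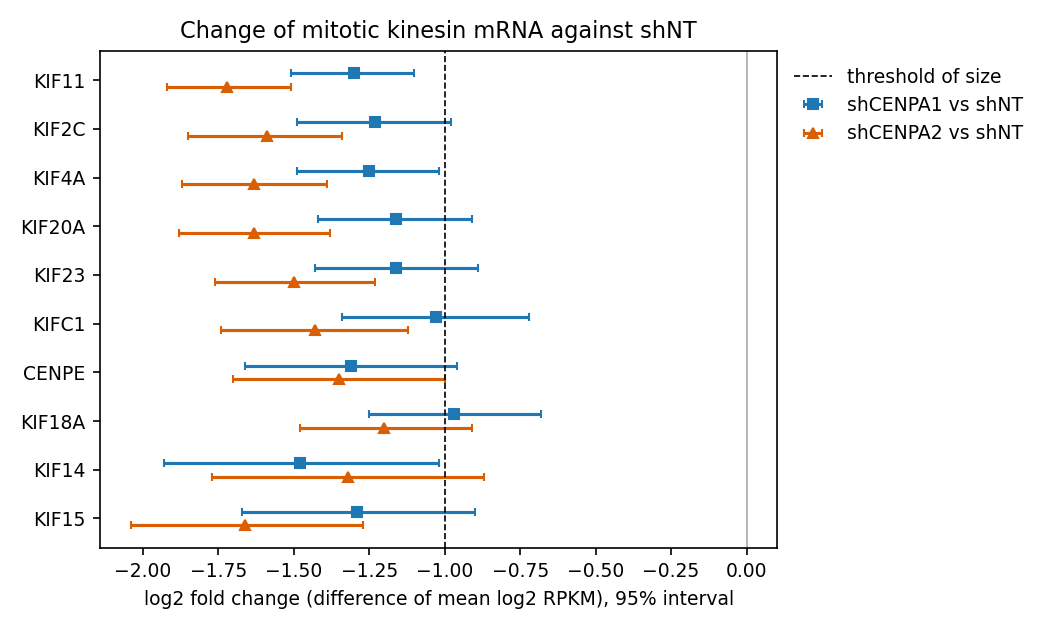
Log2 fold change against shNT (horizontal axis, difference of mean log2 RPKM) of each mitotic kinesin with its 95% interval from limma, for shCENPA1 (squares) and shCENPA2 (triangles); the dashed line marks the threshold of size at -1. All intervals lie below 0, and KIF18A with shCENPA1 is the only estimate to the right of the dashed line, at -0.97.

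Some member genes share their place with others. KIF15 overlaps TMEM42 on the same strand and KIF23 overlaps KIF23-AS1 on the opposite strand, and neither neighbour was in the expression table. Of genes in that table, KIF20A overlaps BRD8 and CDC23 on the opposite strand, and KIF4A overlaps PDZD11. The strand setting of the read counting is not given in the sources used here, although the libraries were strand-specific. BRD8 changed by -0.10 (adjusted p = 0.556) with shCENPA1 and -0.22 (adjusted p = 0.128) with shCENPA2, CDC23 by -0.01 (adjusted p = 0.953) and -0.04 (adjusted p = 0.785), and PDZD11 by 0.03 (adjusted p = 0.897) and 0.04 (adjusted p = 0.795). None of these 3 neighbours passed the test where KIF20A and KIF4A did. KIF4B, a near-identical copy of KIF4A, was not in the table, and how reads common to both were assigned is not stated.

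Read per library, the median shift was similar in both libraries of each group, while single members such as KIF14 spread more widely. The median change of the 10 members from the shNT mean was -1.17 and -1.21 in the shCENPA1 libraries and -1.45 and -1.60 in the shCENPA2 libraries, while the shNT libraries lay at -0.04 and 0.04. KIF18A was the least changed member in each of the 4 knockdown libraries, at -1.01 and -0.92 with shCENPA1 and -1.15 and -1.24 with shCENPA2. The most changed member varied: KIF11 at -1.32 and KIF14 at -1.77 in the shCENPA1 libraries, KIF11 at -1.72 and KIF15 at -1.82 in those of shCENPA2. Summed over the 10 genes, the RPKM was 89.5 and 94.1 in shNT, 39.7 and 39 with shCENPA1, and 32.2 and 30.4 with shCENPA2. The libraries of each group lay close together, in the order shNT, shCENPA1, shCENPA2.

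The make-up of this summed RPKM moved little. KIF11 was the largest part, with 24.2% and 23.4% in shNT, 22.1% and 22.9% with shCENPA1 and 20.5% and 22% with shCENPA2. KIF2C held 15.8% to 17.4% and KIF4A 11.8% to 13.3% across the 6 libraries. The part of KIF2C overlapped between all groups, and that of KIF4A was lower in both shCENPA2 libraries than in both shNT libraries. KIF18A held 5.7% and 5.69% in shNT, 6.52% and 7.08% with shCENPA1, and 7.29% and 7.29% with shCENPA2. Its part was higher in all 4 knockdown libraries, as its fall was the smallest, and that of KIF11 was lower in all 4. These are proportions of a falling total and were not tested.

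The order of the levels was nearly the same in every group. In shNT it ran KIF11 (4.45 ± 0.02 log2 RPKM, SD, n = 2), KIF2C (3.96 ± 0.11), KIF4A (3.57 ± 0.04), KIF20A (3.17 ± 0.07), KIF23 (2.95 ± 0.02), KIFC1 (2.82 ± 0.05), CENPE (2.46 ± 0.08), KIF18A (2.39 ± 0.05), KIF14 (2.28 ± 0.19) and KIF15 (1.64 ± 0.07). Only CENPE with KIF18A, and KIF18A with KIF14, overlapped between neighbours. With shCENPA1 KIFC1 (1.79) and KIF23 (1.78) overlapped, as did CENPE (1.15) and KIF14 (0.80), and KIF18A (1.42) stood above CENPE. With shCENPA2 KIF20A (1.53), KIF23 (1.45) and KIFC1 (1.38) each overlapped the next in order, down to KIF18A (1.19). By their means the 4 highest members and the lowest kept their places in all 3 groups. Among all genes of the table KIF11 lay above 85.9% of genes in shNT, 65.2% with shCENPA1 and 57.6% with shCENPA2. KIF15 lay above 38.8%, 22.3% and 18.8%, so even the lowest member remained measured in each library.

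Between the 2 CENPA shRNAs, 0 of 10 mitotic kinesins were called in the limma fit, where 0.732% of all genes were called in either direction. None passed an adjusted p of 0.05, against 1.42% of all genes, and 0 were called by limma voom on recovered reads. At an unadjusted p under 0.05, 6 of 10 were lower with shCENPA2, against 7.84% of all genes. The median difference of the 10 was -0.37, beside -0.00 over all genes. The estimate was below 0 for 9 of 10, against 50.6% of all genes, and for 8 of 10 both shCENPA2 libraries lay below both shCENPA1 libraries, against 20.2% of all genes. The widest differences were in KIF20A, at -0.47 (95% interval -0.72 to -0.22, adjusted p = 0.0922), KIF11, at -0.41 (-0.61 to -0.21, adjusted p = 0.0671), and KIFC1, at -0.40 (-0.71 to -0.10, adjusted p = 0.237). The intervals also lay below 0 for KIF4A (-0.38, -0.61 to -0.14), KIF2C (-0.36, -0.62 to -0.11) and KIF23 (-0.33, -0.60 to -0.07). They reached past 0 for KIF15 (-0.37, -0.76 to 0.02) and KIF18A (-0.23, -0.51 to 0.05). CENPE (-0.04, -0.39 to 0.31, adjusted p = 0.945) and KIF14 (0.15, -0.30 to 0.61, adjusted p = 0.795) had intervals on both sides of 0, which leave a difference in either direction possible.

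**Figure D4:**
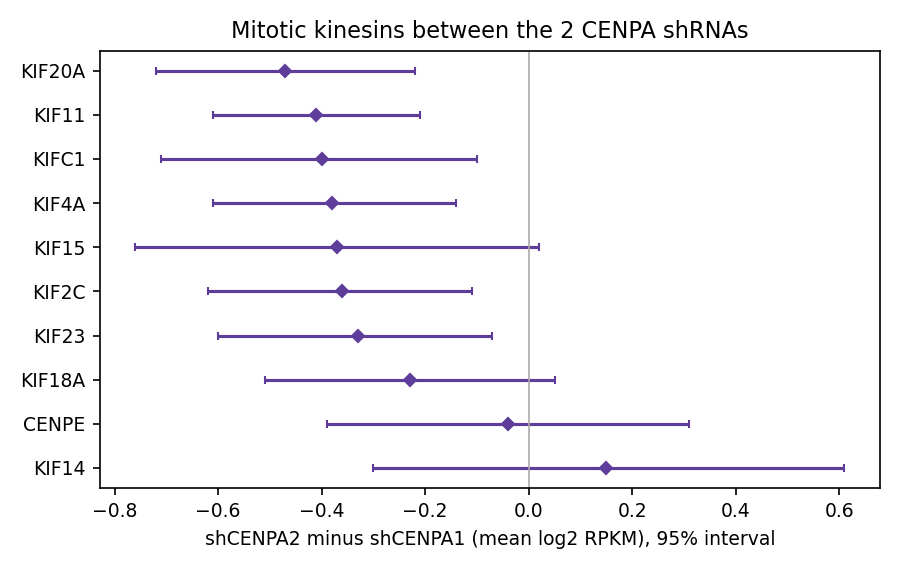
Difference in mean log2 RPKM, shCENPA2 minus shCENPA1 (horizontal axis), of each mitotic kinesin with its 95% interval from limma. Of the 10 estimates 9 lie below 0, and the intervals of KIF15, KIF18A, CENPE and KIF14 include 0; none passed the test after adjustment over all genes.

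Other kinesins of division were measured less fully. Of 8 listed, 5 were in the table (KIF18B, KIF20B, KIF22, KIF24 and KIF2A), and 2 of 5 were called lower with shCENPA1 (1.83% of all genes) and 3 of 5 with shCENPA2 (4.45% of all genes). KIF18B, which works with KIF2C at microtubule plus ends, was at 2.60 and 2.64 log2 RPKM in shNT, 1.60 and 1.45 with shCENPA1 and 0.93 and 0.80 with shCENPA2. Its 3 groups were separate, with changes of -1.10 (adjusted p = 0.00106) and -1.75 (adjusted p = 3.45e-05), and a difference of -0.66 between the shRNAs (adjusted p = 0.0469). KIF20B, a relative of KIF20A in late cleavage, changed by -1.13 (adjusted p = 0.0226) and -1.95 (adjusted p = 0.000568) on only 133 to 662 reads per library. Its call with shCENPA1 was lost when any of the 4 libraries compared was left out, with values from -1.31 to -0.95 and adjusted p from 0.08 to 0.232. KIF24, a motor of centrioles, changed by -1.0 (adjusted p = 0.0057), just short of the threshold of size, and by -1.02 (adjusted p = 0.0023), or -0.96 without library 2 of shCENPA2 and -0.99 without library 1 of shNT. With shCENPA1 it was past the threshold without library 2 of shNT (-1.03) or library 1 of shCENPA1 (-1.06). KIF22, which pushes on chromosome arms, changed by -0.38 (adjusted p = 0.0716) and -0.65 (adjusted p = 0.00313). KIF2A, a depolymerising relative of KIF2C that also works outside division in neurons and cilia, changed by -0.38 (adjusted p = 0.136) and -0.11 (adjusted p = 0.606).

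Kinesins of transport and other roles outside division were also counted. Of 31 listed, 25 were tested, and 0 were called lower with shCENPA1 (1.83% of all genes) and 1 with shCENPA2 (4.45% of all genes), with medians of 0.04 and 0.17. At an adjusted p under 0.05 alone 1 fell and 2 rose with shCENPA1, where 4.45% of all genes fell and 2.69% rose, and 2 fell and 6 rose with shCENPA2, where 10.5% fell and 8.05% rose. An unadjusted p under 0.05 in limma was reached by 8 with shCENPA1 (22.0% of all genes) and 10 with shCENPA2 (32.3%). KIF5B, the heavy chain of conventional kinesin, was at 6.33 and 6.42 log2 RPKM in shNT, 6.42 and 6.02 with shCENPA1 and 6.36 and 6.48 with shCENPA2. The groups overlapped, and it changed by -0.15 (adjusted p = 0.535) and 0.05 (adjusted p = 0.844). KIF3B, part of the heterotrimeric kinesin of cilia, changed by 0.04 (adjusted p = 0.855) and 0.16 (adjusted p = 0.325), and KLC2, a kinesin light chain, by 0.16 (adjusted p = 0.427) and 0.17 (adjusted p = 0.314). The called genes were KIF12, which fell by 1.64 (adjusted p = 0.000928), and KIF21B, which rose by 1.08 (adjusted p = 0.0105), both on the log2 scale with shCENPA2. The call of KIF21B was lost without either shNT library or without library 1 of shCENPA2, at 0.99 to 1.10 (adjusted p from 0.0329 to 0.0782). The summed RPKM of this list was 266 and 276 in shNT, 286 and 256 with shCENPA1 and 303 and 292 with shCENPA2.

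Of 18 dynein and dynactin genes, the motor that walks the other way, 0 were called with either shRNA. Of all genes 2.65% and 6.13% were called in either direction with shCENPA1 and shCENPA2. At an adjusted p under 0.05 alone 1 fell with shCENPA1 (4.45% of all genes) and 1 rose with shCENPA2 (8.05%). An unadjusted p under 0.05 in limma was reached by 1 with shCENPA1 (22.0% of all genes) and 4 with shCENPA2 (32.3%). Their medians were 0.04 and 0.07. Of 14 tubulin genes, from which the tracks are built, 0 were called lower and 1 higher with each shRNA. At an adjusted p under 0.05 alone 2 fell with each shRNA (4.45% and 10.5% of all genes), while 1 rose with shCENPA1 (2.69%) and 2 with shCENPA2 (8.05%). TUBA1B, an alpha tubulin, was at 8.23 and 8.25 log2 RPKM in shNT, 7.64 and 7.69 with shCENPA1 and 7.50 and 7.17 with shCENPA2. Its groups did not overlap, and it changed by -0.58 (adjusted p = 0.0212) and -0.91 (adjusted p = 0.000951). TUBB, a beta tubulin, changed by -0.47 (adjusted p = 0.0451) and -0.52 (adjusted p = 0.0146), and TUBA1A by 0.14 (adjusted p = 0.386) and 0.34 (adjusted p = 0.0257). Tubulin genes resemble each other closely, and how reads common to several were assigned is not stated. The summed RPKM of the tubulins was 749 and 730 in shNT, 591 and 640 with shCENPA1 and 597 and 499 with shCENPA2, lower in all 4 knockdown libraries. TUBB4A, the gene called higher, rose by 1.24 (adjusted p = 0.0138) and 1.02 (adjusted p = 0.0164) on 84 to 346 reads per library. Without library 2 of shNT TUBB4A was at 1.03 (adjusted p = 0.142) and 0.82 (adjusted p = 0.162), and its calls were also lost without either shCENPA1 library (1.24 and 1.25) or without library 2 of shCENPA2 (0.88).

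The mRNA of many partners and regulators of these motors fell too. Of 20 listed, 11 were called lower with shCENPA1 (1.83% of all genes) and 12 with shCENPA2 (4.45%). At an adjusted p under 0.05 alone in limma, 13 fell with each, against 4.45% of all genes with shCENPA1 and 10.5% with shCENPA2. The medians were -1.05 and -1.27. The midzone partners were among them. PRC1, which crosslinks antiparallel microtubules and recruits KIF4A, was at 4.93 and 5.05 log2 RPKM in shNT, 3.83 and 3.77 with shCENPA1 and 3.52 and 3.28 with shCENPA2. Its groups did not overlap, with changes of -1.19 (adjusted p = 0.000266) and -1.59 (adjusted p = 1.84e-05). RACGAP1, the partner of KIF23 in centralspindlin, changed by -1.06 (adjusted p = 0.000265) and -1.23 (adjusted p = 3.99e-05). CIT, the citron kinase that binds KIF14, changed by -1.41 (adjusted p = 0.00074) and -1.43 (adjusted p = 0.000257), and ECT2, which activates RhoA at the cleavage site, by -1.04 (adjusted p = 0.000505) and -1.31 (adjusted p = 4.92e-05). With shCENPA1 ECT2 was at -0.93 without library 2 of shCENPA1 and at -0.97 without library 2 of shNT.

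At the spindle and the kinetochore, TPX2, which holds KIF11 and KIF15 on spindle microtubules, was at 5.38 and 5.46 log2 RPKM in shNT, 4.22 and 4.25 with shCENPA1 and 3.79 and 3.77 with shCENPA2. Its 3 groups were separate, with changes of -1.18 (adjusted p = 9.98e-05) and -1.64 (adjusted p = 6.3e-06). BUB1B, the checkpoint kinase relative that binds CENPE, changed by -1.36 (adjusted p = 0.000287) and -1.56 (adjusted p = 4.47e-05). Of the kinases that phosphorylate these motors, AURKB changed by -1.24 (adjusted p = 0.000545) and -1.75 (adjusted p = 3.13e-05), PLK1 by -1.15 (adjusted p = 0.000505) and -1.41 (adjusted p = 5.81e-05), and AURKA by -0.89 (adjusted p = 0.00081) and -1.02 (adjusted p = 0.000149), the latter -0.93 without library 1 of shCENPA2 and -0.98 without library 1 of shNT. Some of the named partners did not pass the test. NUMA1, which tethers dynein at the poles and lies in the nucleus between divisions, changed by 0.14 (adjusted p = 0.438) and 0.09 (adjusted p = 0.55). MAPRE1, the plus-end binding protein EB1, changed by -0.02 (adjusted p = 0.929) and 0.08 (adjusted p = 0.589). KIFBP, listed in the table as KIF1BP and known to hold KIF15 and KIF18A off microtubules, changed by -0.17 (adjusted p = 0.268) and -0.15 (adjusted p = 0.275).

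**Figure D5:**
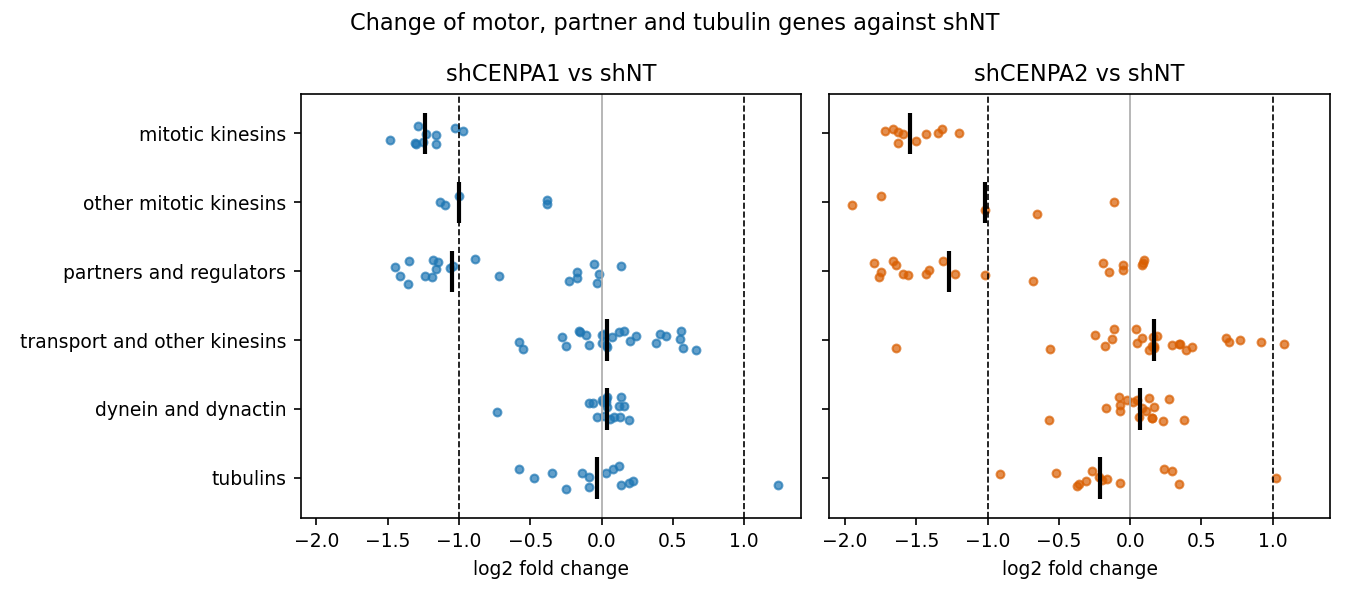
Log2 fold changes against shNT (horizontal axis) of the tested genes of 6 lists, with 1 dot per gene, shCENPA1 on the left and shCENPA2 on the right; the upright bar is the list's median and the dashed lines mark -1 and 1. The mitotic kinesins lie between -1.48 and -0.97 on the left and between -1.72 and -1.20 on the right, while the medians of transport and other kinesins, dynein with dynactin, and tubulins lie between -0.21 and 0.17.

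Markers of proliferating cells moved with the mitotic kinesins. All 8 listed markers were in the table and fell with both shRNAs, 5 of them called with shCENPA1 (1.83% of all genes) and 8 with shCENPA2 (4.45%), with medians of -1.20 and -1.53. Their summed RPKM was 360 and 372 in shNT, 171 and 186 with shCENPA1 and 139 and 139 with shCENPA2. MKI67, the gene of the Ki-67 antigen, changed by -1.40 (adjusted p = 0.000311) and -1.66 (adjusted p = 4.47e-05). The part of a smaller number of dividing cells in the fall of the kinesins was not tested. Of the reference genes GAPDH changed by 0.22 (adjusted p = 0.474) and 0.08 (adjusted p = 0.771) and ACTB by -0.01 (adjusted p = 0.959) and -0.09 (adjusted p = 0.639).

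The 5 genes whose change from shNT lay closest to the median change of the 10 members over the 6 libraries were PLK4, EME1, SPAG5, OAS3 and CDCA8. They were picked from 11944 tested genes outside the lists that averaged 0 log2 RPKM or more. Likeness was the Euclidean distance to that median after each gene's mean in shNT was subtracted, so the size of the fall from shNT counts in it. It was 0.0994 for PLK4, 0.105 for EME1, 0.115 for SPAG5, 0.171 for OAS3 and 0.173 for CDCA8. PLK4 starts centriole duplication, EME1 is a subunit of a nuclease that resolves DNA junctions, SPAG5 (astrin) acts at the spindle and CDCA8 (borealin) belongs to the complex of Aurora B. OAS3, an antiviral enzyme induced by interferon, is of another kind. It was at 1.94 and 2.04 log2 RPKM in shNT, 0.94 and 0.68 with shCENPA1 and 0.60 and 0.35 with shCENPA2. The order of its groups was that of the kinesins, without overlap. As OAS3 was picked for its likeness over these same libraries, that order is no separate result.

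The CHR word was set beside the size of the change within the group, and its part in the fall was not tested. The member with the smallest change with both shRNAs, KIF18A, holds the word. So do KIF14, which changed most with shCENPA1, and KIF11, which changed most with shCENPA2. KIF20A, KIF2C and CENPE, without it, changed by -1.16, -1.23 and -1.31 with shCENPA1 and by -1.63, -1.59 and -1.35 with shCENPA2. These values lay within the range of the other 7. Of the 5 other mitotic kinesins, all matched to a promoter, 4 held both the CHR and CCAAT (KIF18B, KIF20B, KIF22 and KIF24), and KIF2A held no CHR. Of 19 transport and other kinesins with a promoter 1 held the CHR (KIF5B), and of 16 dynein and dynactin genes 0 did. Of 14 tubulins 3 held it (TUBA1C, TUBB3 and TUBB4B), and of 8 proliferation markers 4 did. Of 14 partners and regulators with a promoter 10 held it, MAPRE1 among them. Among all promoters of genes in the table the share was 11.7%.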

How the data were processed

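The authors prepared stranded mRNA libraries (TruSeq), sequenced them on an Illumina HiSeq, and used Trim Galore, STAR (hg38), HTSeq and edgeR, with versions not given in the sources used here. The deposited values are log2 RPKM per gene and run. A small constant was added by the authors before the log, and it shrinks fold changes of genes with few reads. The constant is not stated and was inferred from the values as 0.25 reads. With it, the spacing of the values gave whole reads for 14828 of 14828 genes (largest distance from a whole read 3.5e-08), the source of depth and read numbers. Averaged over genes, the chi-square per gene was 1.24 to 1.31 between lanes and 26.5 to 80.1 between libraries. At this depth, 79172294 to 133074655 reads on genes per library, the 2 libraries of a group thus differed by more than counting on that average. Genes with many reads weigh most in it. Single genes were not examined, so it does not show that counting was negligible for each member or for genes with few reads.

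The mean of the 2 lanes stood for each library. The test was limma 3.58.1 (R 4.3.3, lmFit and then eBayes with trend) on the 14624 genes whose average level reached -3, in a single fit of 6 libraries and 3 groups, without covariate. Fold changes are differences of mean log2 RPKM, and p-values are two-sided and adjusted by Benjamini-Hochberg over these genes. In simulated reads for 14624 genes, 100 genes were changed at each of 2 fold sizes. For shCENPA1, 94 (log2 fold 1.5) and 96 (log2 fold 2) were recovered, with 2 others called. The changed genes were drawn from genes with more reads, and both folds lay past the threshold of size. With shCENPA1 the members changed by -1.48 to -0.97, and recovery at these smaller sizes was not simulated. Positions are from GENCODE 44 on GRCh38, the assembly of hg38, and promoters from RefSeq GRCh38.p14, searched for exact words on both strands.

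The members and the other lists were chosen with earlier results of these data known. Named were all members, CENPA, the other mitotic kinesins in the table, transport kinesins, dynein and tubulin genes that were called, the 3 highest transport kinesins, 12 set partners, MKI67, GAPDH, ACTB and the 5 genes of nearest pattern. TUBA1A, TUBA1B and TUBB, which passed an adjusted p of 0.05 in at least 1 comparison, were added after their values were seen, and BRD8, CDC23 and PDZD11 for their overlap with members. Alternatives were single lanes, other constants, filters and scalings, voom on recovered reads with TMM factors, fits of 2 groups, a replicate block and leaving out each library. The values of 2 listed marker genes are not reported here.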

Additional observations from a re-analysis of the deposited data

Results flagged for a closer look

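Between the 2 CENPA shRNAs, 3 of the 32 named genes besides the members passed an adjusted p of 0.05, against 1.42% of all genes. The test was the limma contrast of shCENPA2 with shCENPA1, a test of the difference itself. CENPA, the target of both shRNAs, was lower with shCENPA2 by 0.98 on the log2 scale (-0.98, adjusted p = 0.0209). KIF18B differed by -0.66 (adjusted p = 0.0469) and TPX2 by -0.46 (adjusted p = 0.0348). In each, both shCENPA2 libraries lay below both shCENPA1 libraries. Under 19 alternatives CENPA passed in 14 (-1.02 to -0.5, adjusted p 0.00644 to 0.212), TPX2 in 10 (-0.47 to -0.43, adjusted p 0.0284 to 0.214) and KIF18B in 7 (-0.73 to -0.46, adjusted p 0.0279 to 0.186). None of the 10 mitotic kinesins passed in this contrast, with 6 of 10 lower at an unadjusted p under 0.05 (7.84% of all genes). Whether the kinesins differed less than these 3 genes was not tested. Groups of 2 libraries were too small for a test of single libraries.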

How the results depend on the processing

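Under 19 alternatives the single members kept their side of the threshold in 559 of 570 values, 2 gained a call and 9 lost it. No called value changed sign. Between the CENPA shRNAs the uncalled differences of KIF14 (-0.14 to 0.45) and CENPE (-0.23 to 0.15) took either sign. The 32 other named genes kept theirs in 1759 of 1815 values, with 45 calls lost and 11 gained. With 1 added to the RPKM, which draws all changes towards 0, 5 instead of 9 mitotic kinesins were called lower with shCENPA1, and the medians were -1.0 with shCENPA1 and -1.19 with shCENPA2. KIF18A with shCENPA1 passed the threshold of size without library 1 of shNT (-1.0 after rounding, adjusted p = 0.0111) and without library 2 of shCENPA1 (-1.01, adjusted p = 0.0192), and KIFC1 missed it in lane 7 alone (-0.97), under quantile normalization (-1.0 after rounding) and without library 1 of shNT (-0.99). Leaving out each library gave 9 to 10 members called with shCENPA1, 10 with shCENPA2 and 0 between the shRNAs, and medians from -1.29 to -1.17, from -1.60 to -1.45 and from -0.41 to -0.25, the last value without library 2 of shCENPA2.

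Of the 5 other mitotic kinesins, 2 called lower with shCENPA1 became 1 in lane 8 alone, 1 with 0.1 added to the RPKM, 0 with 1 added, 1 when only genes averaging 0 log2 RPKM or more were fitted, and 1 to 2 when each library was left out (1 without library 1 of shNT or library 2 of shCENPA1). With shCENPA2, 3 became 1 with 1 added to the RPKM, and 2 to 3 when each library was left out. With 1 added, calls over all genes fell from 388 to 119 with shCENPA1, from 897 to 317 with shCENPA2 and from 107 to 17 between the shRNAs; with that higher filter they were 262, 529 and 53. With 1 sample left in a group, that sample was taken to vary like the others.

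The library numbers did not pair the samples (correlations of deviations -0.0641, -0.0952 and -0.145). With the library number as a replicate block 9, 10 and 0 members were called and 383, 891 and 95 genes over all. With the numbers crossed, an alternative chosen after seeing the data, 429, 944 and 170 genes were called.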
